A study of Mus musculus with 386 samples.

Results

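Mt1, Mt2, Mt3 and Slc30a1 were followed across brain, kidney, liver and lung of young mice. The first 3 encode metallothioneins and Slc30a1 encodes the zinc exporter ZnT1. Each gene was taken from the transcript cluster (the probe set that the array summarises per gene) that carries its symbol alone, and where several clusters carry one symbol the rule takes the cluster with the highest mean. All 4 genes had exactly 1 such cluster, so the members are 4 of the 18820 genes measured.

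RNA from whole tissue of 111 mice, all 23 days old, was hybridised to Affymetrix Mouse Gene 1.1 ST arrays, with 85 brain, 102 kidney, 101 liver and 98 lung arrays. The 6 F1 crosses, named with the dam first, were CASTxPWK, PWKxCAST, CASTxWSB, WSBxCAST, PWKxWSB and WSBxPWK, and the 3 inbred groups were CASTxCAST, PWKxPWK and WSBxWSB. CAST, PWK and WSB are wild-derived inbred strains. No group had a treatment or an engineered allele, all mice were bred at UNC from stock few generations removed from Jackson Laboratory founders, and both sexes were present in every group, with 6 to 13 arrays per cross and tissue and 2 to 7 per cross, sex and tissue. Per the labels each array of a group came from a separate animal, and 67 animals gave all 4 tissues.

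Metallothioneins are small, cysteine-rich proteins of the cytosol that bind zinc and copper. Mt1 and Mt2 are made in most tissues and are induced by metals, glucocorticoids, inflammatory signals and oxidative stress, whereas Mt3 is the brain form. ZnT1, the product of Slc30a1, sits in the plasma membrane and moves zinc out of the cell. When cytosolic zinc is high, the zinc-sensing factor MTF1 binds metal response elements in the promoters of Mt1, Mt2 and Slc30a1 and raises their transcription, so storage and export respond to one signal. In liver the metallothioneins are a store of zinc in early life and after fasting or stress.

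The promoters are shown because metal response elements are the shared control sequence of this pathway. The 250 bases before the start of each gene, as RefSeq gives them on GRCm38.p6, lie at chr8:94178839-94179088 for Mt1, chr8:94172368-94172617 for Mt2, chr8:94152357-94152606 for Mt3 and chr1:191906531-191906780 for Slc30a1, all on the plus strand. Capitals mark each match, on either strand, to the element core TGCACNC or TGCGCNC.
Mt1: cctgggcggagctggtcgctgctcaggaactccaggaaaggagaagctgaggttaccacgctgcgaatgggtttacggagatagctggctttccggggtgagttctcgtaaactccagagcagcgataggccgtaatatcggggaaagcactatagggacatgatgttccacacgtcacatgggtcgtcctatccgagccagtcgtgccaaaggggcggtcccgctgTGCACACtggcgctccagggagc
Mt2: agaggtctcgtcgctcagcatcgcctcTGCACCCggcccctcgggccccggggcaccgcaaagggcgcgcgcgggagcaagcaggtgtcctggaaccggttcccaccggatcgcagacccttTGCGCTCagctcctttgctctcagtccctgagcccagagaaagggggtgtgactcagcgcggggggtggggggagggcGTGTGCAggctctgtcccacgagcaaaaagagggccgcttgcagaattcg
Mt3: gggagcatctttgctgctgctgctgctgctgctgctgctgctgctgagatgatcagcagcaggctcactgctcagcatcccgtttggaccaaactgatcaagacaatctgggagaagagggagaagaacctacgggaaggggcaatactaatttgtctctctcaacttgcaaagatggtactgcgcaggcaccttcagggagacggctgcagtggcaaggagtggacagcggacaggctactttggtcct
Slc30a1: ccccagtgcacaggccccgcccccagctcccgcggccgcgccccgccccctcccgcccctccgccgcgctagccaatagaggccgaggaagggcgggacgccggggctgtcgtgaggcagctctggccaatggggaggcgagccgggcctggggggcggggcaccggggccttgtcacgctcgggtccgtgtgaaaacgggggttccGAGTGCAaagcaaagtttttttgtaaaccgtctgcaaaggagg
The Mt2 stretch held 3 matches, those of Mt1 and Slc30a1 held 1 each, and that of Mt3 held 0. Of 32851 RefSeq promoters of the same length, 21.4% held at least 1 match and 1.26% held at least 3. A further 2 matches for Mt1 and 1 each for Mt2, Mt3 and Slc30a1 reached into the first 50 bases after the start. These counts hold for the RefSeq start alone. Bases outside these stretches and other starts of the genes were not searched, so the counts do not rank the promoters. The 3 metallothionein genes are neighbours, with 20011 bases between the starts of Mt3 and Mt2 and 6471 between those of Mt2 and Mt1. A match describes these letters in the reference strain and is not a measured binding site, and the sequences of CAST, PWK and WSB were not analysed here.

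The tissues carried the markers of their labels. The median neuron marker stood at 12.55 in brain, the median hepatocyte marker at 13.46 in liver, the median proximal tubule marker at 12.46 in kidney and the median alveolar marker at 12.90 in lung, all as log2 signal. Heart muscle markers were also high in lung (median 11.28) and brown fat markers in kidney (median 9.27). One brain array labelled female (PWKxCAST replicate 9) had low signal for Xist and for the Y-linked Eif2s3y, and 1 liver array labelled male (PWKxWSB replicate 8) had high Xist. Leaving out both arrays lost none of the calls within tissues described here and gained 1, which is given with the F1 values of Mt1 in liver. In bulk tissue, fewer cells of a type and less RNA per cell cannot be told apart.

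Mt1, Mt2 and Slc30a1 were present in all 4 tissues, and Mt3 stood high in brain alone. Median log2 signal of Mt1 over all arrays of a tissue was 11.40 in brain (SD 0.20, n = 85), 11.02 in liver (SD 1.08, n = 101), 10.81 in kidney (SD 0.49, n = 102) and 9.38 in lung (SD 0.46, n = 98). Mt2 averaged 12.53 ± 0.13 (SD) in brain, 12.41 ± 0.76 in liver, 11.72 ± 0.54 in kidney and 11.18 ± 0.48 in lung. The spread was as marked as the level: single liver arrays ran from 8.60 to 12.72 for Mt1 and from 9.74 to 13.31 for Mt2, whereas brain arrays stayed between 10.90 and 11.88 for Mt1 and between 12.14 and 12.82 for Mt2.

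Mt3, the brain metallothionein, averaged 11.44 ± 0.19 in brain, above 96.7% of genes. Outside brain it averaged 6.63 ± 0.21 in kidney, 6.59 ± 0.32 in lung and 6.38 ± 0.27 in liver, above 42.1 to 44.8% of genes. Slc30a1 had another order, with 9.94 ± 0.19 in kidney, 9.53 ± 0.21 in liver, 9.40 ± 0.14 in lung and 9.12 ± 0.12 in brain. No brain array reached the lowest kidney array of Slc30a1, since the highest brain array stood at 9.41 and the lowest kidney array at 9.52. Over all genes, 42.4% did not overlap between brain and kidney.

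limma (all 4 tissues in one fit, Benjamini-Hochberg adjustment over 13774 genes) called 23 of the 24 tissue differences of the 4 genes. Between 93.2% and 96.4% of all genes were called in these 6 comparisons (95.5% for brain minus kidney, 96.4% for brain minus liver, 95% for brain minus lung, 93.2% for kidney minus liver, 93.9% for kidney minus lung and 95.9% for liver minus lung), so a call by itself says little. Brain minus lung was 2.04 ± 0.06 (SE) for Mt1 and brain minus kidney was 4.82 ± 0.03 for Mt3 and −0.82 ± 0.02 for Slc30a1, all on the log2 scale. The neighbours that lay closest were kidney and lung for Mt3 (0.05 ± 0.03, adjusted p = 0.0823, not called), kidney and liver for Mt1 (−0.13 ± 0.05, adjusted p = 0.0199) and brain and liver for Mt2 (0.13 ± 0.05, adjusted p = 0.0124). The last of these fell to 0.07 with an adjusted p of 0.212 when each array was centred on its median. A joint normalisation of the tissues, or its absence, was not given in the sources used here.

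**Figure D1:**
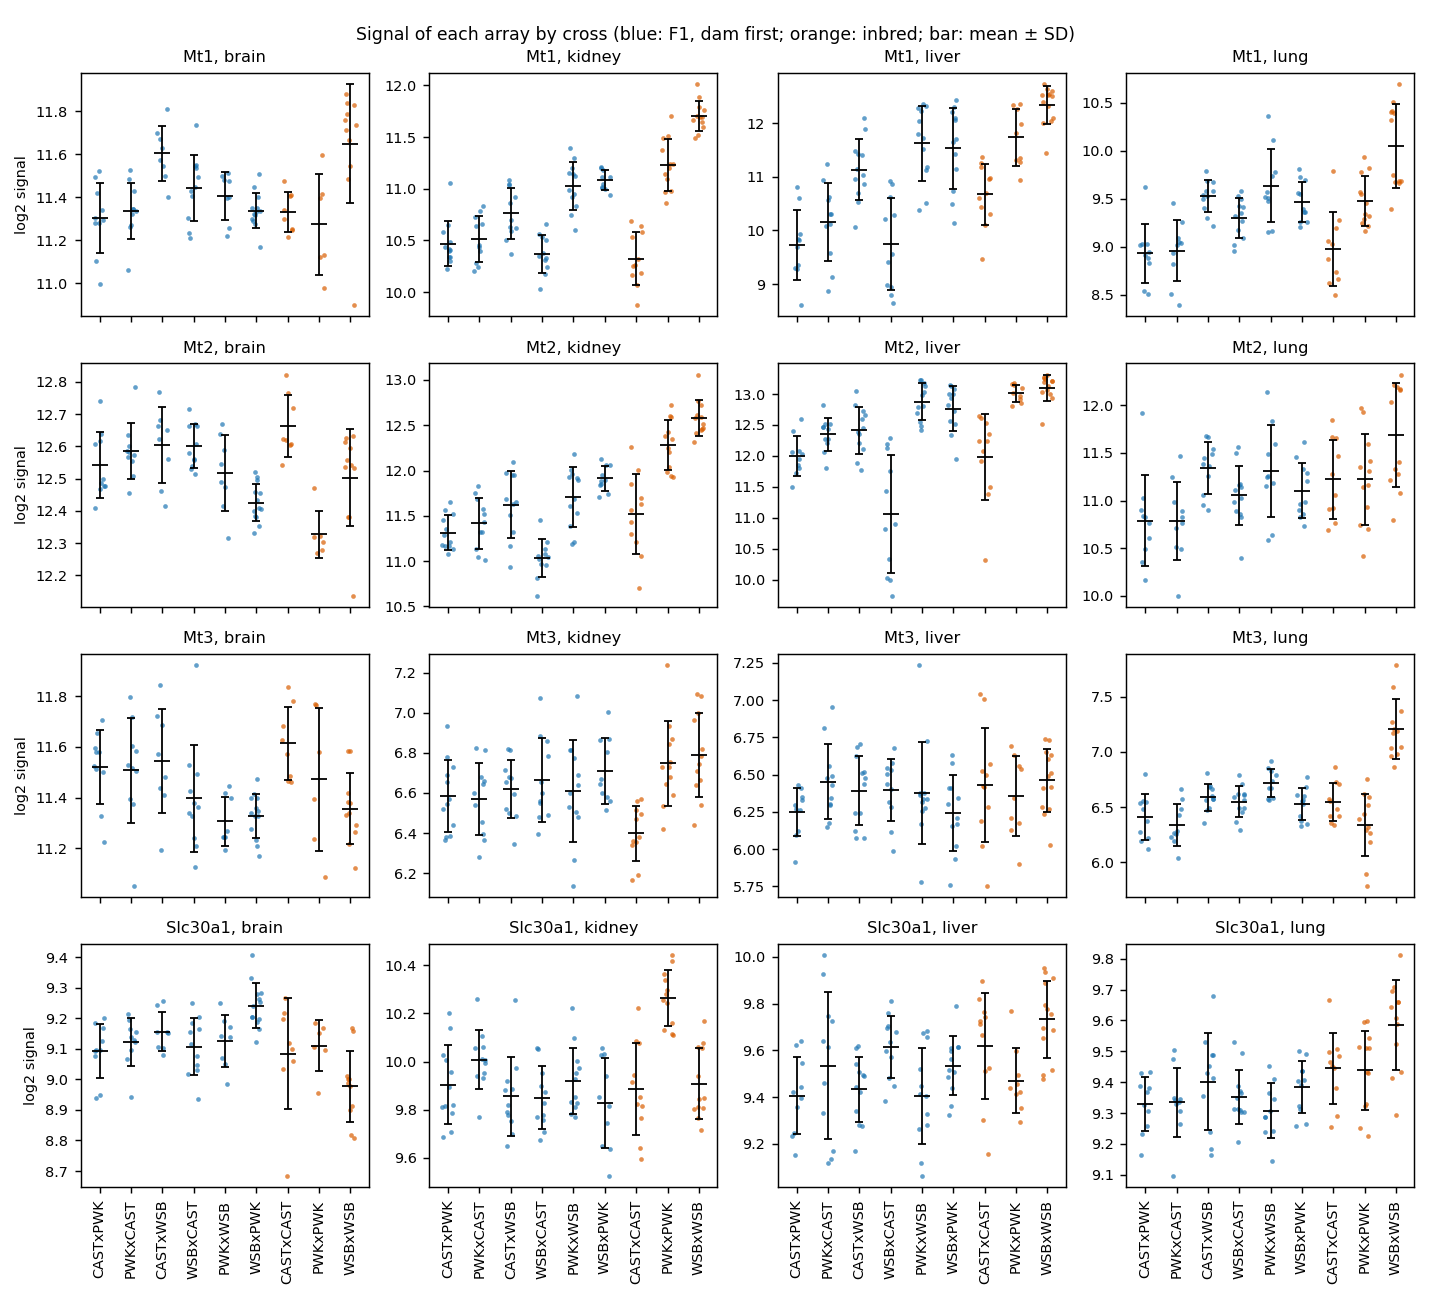
Log2 signal of every array (points) by cross, for each gene (rows) and tissue (columns), with the mean and SD of each group in black. F1 crosses (blue, dam first) stand left of the inbred groups (orange), the vertical scale differs between panels, Mt3 is near 11.4 in brain and near 6.5 elsewhere, and Mt1 in liver runs from 8.60 to 12.72.

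The share of variance that lay between the 9 crosses differed by gene and tissue. For Mt1 it was 82.6% in kidney, 67.1% in liver, 58.6% in lung and 39.9% in brain, and for Mt2 it was 74.2% in kidney, 64.9% in liver, 46.9% in brain and 30.5% in lung. For Mt3 it was 65.7% in lung and 8.24% in liver, and for Slc30a1 it lay between 26.7% in liver and 43.5% in kidney. Strain differences of all 4 genes also varied between tissues in limma's F-test of strain by tissue (adjusted p from 4.5e-17 for Mt3 to 4.7e-06 for Mt1), as they did for 83.8% of all genes.

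Between the inbred strains, Mt1 was lowest in CAST and highest in WSB in liver, kidney and lung. In liver, Mt1 read 9.46 at the lowest, 10.69 at the median and 11.37 at the highest in CASTxCAST (n = 11), against 11.43, 12.50 and 12.72 in WSBxWSB (n = 13), and PWKxPWK lay between with 10.93, 11.81 and 12.35 (n = 9). CAST and WSB livers did not overlap, and CAST and PWK livers overlapped. The log2 difference was −1.03 ± 0.26 for CAST minus PWK (limma adjusted p = 0.000555), −1.63 ± 0.24 for CAST minus WSB (adjusted p = 5.1e-09) and −0.61 ± 0.25 for PWK minus WSB (adjusted p = 0.0342).

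Kidney gave the clearest order for Mt1. CASTxCAST kidneys read 9.87, 10.26 and 10.69 (lowest, median and highest, n = 11), PWKxPWK kidneys 10.86, 11.22 and 11.71 (n = 12), and WSBxWSB kidneys 11.49, 11.70 and 12.01 (n = 12). CAST kidneys lay below every PWK and every WSB kidney, and the PWK and WSB ranges overlapped. The differences were −0.91 ± 0.09 for CAST minus PWK, −1.38 ± 0.09 for CAST minus WSB (adjusted p = 2.3e-26) and −0.47 ± 0.08 for PWK minus WSB (adjusted p = 9.5e-07). In lung the same differences were −0.50 ± 0.13, −1.04 ± 0.13 and −0.54 ± 0.12, all called, though in females alone the last was −0.24 (adjusted p = 0.263).

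Mt2 followed Mt1 in liver and kidney for CAST, and in liver it did not separate PWK from WSB. CASTxCAST livers read 10.31, 12.23 and 12.64, against 12.80, 13.02 and 13.18 in PWKxPWK and 12.52, 13.19 and 13.31 in WSBxWSB. CAST minus PWK in liver was −1.0 ± 0.16 without overlap, CAST minus WSB was −1.09 ± 0.15, and PWK minus WSB was −0.09 ± 0.16 (adjusted p = 0.652). In kidney, CAST minus PWK was −0.76 ± 0.12, CAST minus WSB was −1.05 ± 0.12 without overlap, and PWK minus WSB was −0.30 ± 0.12 (adjusted p = 0.0212).

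Brain ran the other way for Mt2. CASTxCAST brains read 12.54, 12.62 and 12.82 (n = 8), against 12.27, 12.31 and 12.47 in PWKxPWK (n = 6) and 12.14, 12.54 and 12.63 in WSBxWSB (n = 11). CAST minus PWK was 0.35 ± 0.05 (adjusted p = 1.6e-08) with no overlap, and CAST minus WSB was 0.18 ± 0.04 (adjusted p = 0.00017), which fell to 0.08 with an adjusted p of 0.119 on centred arrays. Mt1 in brain kept WSB highest, at −0.28 ± 0.07 for CAST minus WSB and −0.42 ± 0.07 for PWK minus WSB, and CAST minus PWK was 0.13 ± 0.08 (adjusted p = 0.172). In females alone neither difference from WSB was called, at −0.04 for CAST (adjusted p = 0.804) and −0.09 for PWK (adjusted p = 0.53). The 5 WSBxWSB females read 10.90 to 11.74 for Mt1 in brain and the 6 males 11.67 to 11.88, and these males formed 1 run of neighbouring animal numbers with no female in it.

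Mt3 differed between strains chiefly in lung and kidney, where its level was low. In lung, Mt3 read 6.34, 6.52 and 6.86 in CASTxCAST (n = 10) and 5.79, 6.35 and 6.76 in PWKxPWK (n = 12), against 6.86, 7.18 and 7.79 in WSBxWSB (n = 12). WSB lungs overlapped with neither, since the highest CAST and the lowest WSB lung differ only past the digits printed. PWK minus WSB was −0.86 ± 0.08 (adjusted p = 3.8e-16), CAST minus WSB was −0.64 ± 0.09 (adjusted p = 5.5e-10) and CAST minus PWK was 0.22 ± 0.09 (adjusted p = 0.019). Of 5 heart muscle markers tested, PWK lungs had less of 5 and CAST lungs less of 3 than WSB lungs, and 4 were higher in CAST than in PWK. In these comparisons 61.4%, 59.9% and 62.7% of all genes were called in either direction. The mean log2 level of these markers per lung ran from 9.88 to 12.10 in CASTxCAST, 9.15 to 12.40 in PWKxPWK and 10.69 to 12.75 in WSBxWSB. Their part in the Mt3 difference was not tested. In kidney, Mt3 was lower in CAST than in PWK (−0.35 ± 0.08) and than in WSB (−0.39 ± 0.08), in brain it was 0.26 ± 0.08 higher in CAST than in WSB (adjusted p = 0.0047, and 0.109 on centred arrays), and in liver no difference was called.

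Slc30a1 had a strain order of its own. In kidney it was highest in PWK, with 9.60, 9.85 and 10.22 in CASTxCAST, 10.11, 10.27 and 10.44 in PWKxPWK, and 9.72, 9.85 and 10.17 in WSBxWSB, and each pair of ranges overlapped. CAST minus PWK was −0.39 ± 0.06 (adjusted p = 6.1e-08), PWK minus WSB was 0.36 ± 0.06 (adjusted p = 2.4e-07), and CAST minus WSB was −0.03 ± 0.06 (adjusted p = 0.694). In liver PWK minus WSB was −0.26 ± 0.08 (adjusted p = 0.003), in lung CAST minus WSB was −0.13 ± 0.05 and PWK minus WSB −0.13 ± 0.04, both called, and in brain no difference was called. In females alone the lung values were −0.07 (adjusted p = 0.408) and −0.01 (adjusted p = 0.889), and in males alone the liver value was −0.25 (adjusted p = 0.0617). In kidney, CAST minus WSB was thus −1.38 for Mt1 and −0.03 for Slc30a1.

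In all, 32 of the 48 strain differences were called. By tissue, the count of called members of 4, beside the share of all genes called, was 1 (40.9%), 3 (52.4%) and 2 (40.4%) in brain for CAST minus PWK, CAST minus WSB and PWK minus WSB. In that order of comparisons kidney had 4 (60.1%), 3 (59.6%) and 3 (60.7%), liver had 2 (50.1%), 2 (57.0%) and 2 (55.3%), and lung had 2 (62.7%), 4 (59.9%) and 4 (61.4%). These counts are near the background. Of the 48 differences 8 had groups that did not overlap, which is near the background as well. Between 10.2% and 14.8% of all genes had groups that did not overlap in the comparisons where a member's did not (10.2% for CAST and WSB liver, 12.1% for CAST and PWK liver, 13.6% for CAST and PWK kidney, 11.5% for CAST and WSB kidney, 14.8% for CAST and PWK brain, 11.1% for CAST and WSB lung and 10.4% for PWK and WSB lung). Variants of the strains that lie under probes were not analysed here and can change signal without a change in transcript, and cross-hybridisation between the similar Mt1 and Mt2 transcripts was not tested.

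Several of the strain differences were not called in each sex alone, in a fit by runs of animals or without a single array. In females alone 10 of the 32 calls were lost and in males alone 6, with fewer arrays in each fit. When runs of neighbouring animals entered as a random block, the calls were lost for Mt1 in liver for PWK minus WSB (−0.54, adjusted p = 0.16), for Mt2 in kidney for PWK minus WSB (−0.34, adjusted p = 0.0645), for Mt2 in lung for CAST minus WSB (−0.40, adjusted p = 0.124) and PWK minus WSB (−0.41, adjusted p = 0.111), and for Mt3 in lung for CAST minus PWK (0.25, adjusted p = 0.064). The Mt1 liver call for PWK minus WSB also ended without any one of PWKxPWK replicates 3, 4, 5 and 6 or WSBxWSB replicate 1 (−0.52 to −0.58). The Mt2 lung difference between PWK and WSB was 0.049 in females (adjusted p = 0.873) and −0.87 in males (adjusted p = 0.0011), and the difference between the sexes was not tested. PWKxPWK lungs read 10.70 to 11.97 in females and 10.41 to 11.93 in males, and WSBxWSB lungs 10.79 to 12.21 in females and 11.21 to 12.32 in males. Of the other arrays that decided a call by themselves, WSBxWSB replicate 1 ended that of Mt2 in kidney (−0.24) and in lung (−0.31 for CAST minus WSB and −0.30 for PWK minus WSB), and 3 arrays each ended that of Mt3 in lung for CAST minus PWK (CASTxCAST replicate 4 and PWKxPWK replicates 6 and 10, 0.17 to 0.19). Mt2 in lung also lost its call for CAST minus WSB without CASTxCAST replicate 2, 3, 6 or 10 or WSBxWSB replicate 6 (−0.36 to −0.39), and for PWK minus WSB without PWKxPWK replicate 6 or 9 (−0.35 and −0.34).

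**Figure D2:**
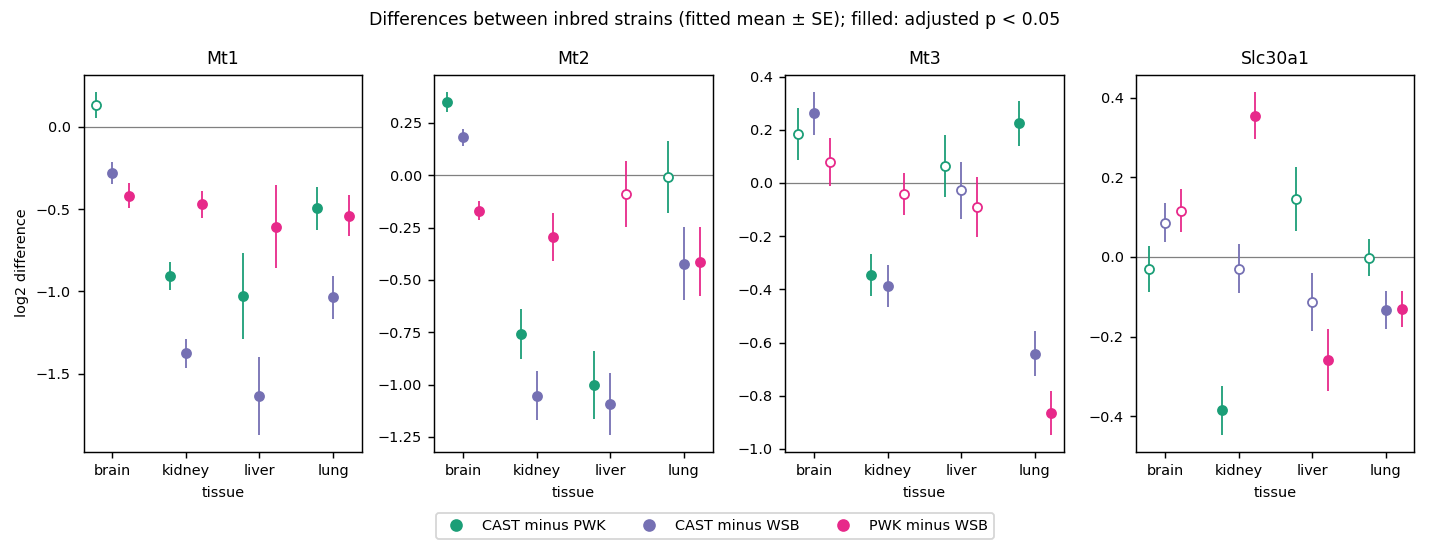
Fitted log2 difference ± SE between inbred strains for each gene by tissue, filled where the limma adjusted p was under 0.05. Every Mt1 point lies below 0 except CAST minus PWK in brain, and the Slc30a1 points of kidney lie at −0.39, −0.03 and 0.36.

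Other genes of zinc and copper handling also differed between strains, in both directions. Of 7 other Slc30 family genes tested in liver, 2 were higher and 3 lower in CAST than in PWK, 5 higher and 2 lower in CAST than in WSB, and 6 higher and 1 lower in PWK than in WSB. Slc30a6, which loads zinc into the secretory pathway, was lower in PWK than in WSB liver (−0.70 ± 0.05), and Slc30a5, its partner, was higher (0.52 ± 0.05). Of 12 Slc39 family genes, which bring zinc into the cytosol, 3 were higher and 7 lower in CAST than in WSB liver. Of all genes 57.0% were called in that comparison, 25.3% of them lower in CAST as a share of all genes. For CAST minus PWK and PWK minus WSB liver 50.1% and 55.3% of all genes were called. Slc39a5 was lower in PWK than in WSB liver (−1.79 ± 0.15) and higher in CAST than in PWK liver (1.01 ± 0.16). Mtf1 itself, tested with 8 other metal and copper genes, was 0.61 ± 0.08 higher in CAST and 0.58 ± 0.08 higher in PWK than in WSB liver, the reverse of Mt1.

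Glucocorticoid targets, listed because glucocorticoids induce Mt1 and Mt2, had more members called lower than higher in CAST against each other strain in liver, kidney and lung. In liver, of 12 tested, 0 were higher and 10 lower in CAST than in WSB (median −0.38, against 0.04 over all genes, of which 25.3% were called lower). Against PWK liver 3 were higher and 8 lower in CAST (median −0.36, against −0.01, 26.3% of all genes lower), and PWK minus WSB had 1 higher and 2 lower (median −0.03). Dusp1, a phosphatase of MAP kinases, was lower in CAST than in WSB liver (−1.07 ± 0.16), and so was Sgk1, a kinase of salt balance (−0.49 ± 0.11). In lung, 1 of 12 was higher and 7 lower in CAST than in WSB (24% of all genes lower), and 0 were higher and 8 lower in CAST than in PWK (29.5% lower). In kidney, 0 of 11 were higher and 5 lower in CAST than in WSB (25.5% lower), and 2 were higher and 6 lower in CAST than in PWK (33.0% lower). Of 17 acute-phase genes in liver, 2 were higher and 10 lower in CAST than in WSB, 5 higher and 9 lower in CAST than in PWK, and 3 higher and 9 lower in PWK than in WSB. Of 6 oxidative stress genes in liver, 3 were higher and 3 lower in CAST than in WSB. In liver 57.0%, 50.1% and 55.3% of all genes were called in either direction for CAST minus WSB, CAST minus PWK and PWK minus WSB. The part of glucocorticoids in the metallothionein differences was not tested.

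Of 5 macrophage markers 5 were lower in CAST than in WSB liver, as were 25.3% of all genes. Their mean log2 level ran from 8.32 to 8.60 in CASTxCAST and from 8.88 to 9.19 in WSBxWSB. Of 5 hepatocyte markers 1 was higher and 2 lower, where 57.0% of all genes were called in either direction. In kidney, both tested exocrine pancreas markers were lower in CAST than in WSB, as were 25.5% of all genes. The mean level over that list was 4.89 to 5.41 in CASTxCAST and 6.21 to 6.85 in WSBxWSB. The part of these cells in the metallothionein differences was not tested.

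In F1 mice, Mt1 and Mt2 lay below the mean of their parents in kidney for every pair of strains, and in liver for both pairs that include CAST, by the calls given here. Mt1 livers of CASTxPWK read 8.60, 9.76 and 10.82 (n = 10) and of PWKxCAST 8.86, 10.30 and 11.24 (n = 11), against 9.46, 10.69 and 11.37 in CASTxCAST and 10.93, 11.81 and 12.35 in PWKxPWK. The median of each F1 group thus lay below the medians of both parents, and the ranges overlapped with CASTxCAST. F1 minus mid-parent was −1.25 ± 0.18 for CAST and PWK (limma adjusted p = 6.1e-08), −1.02 ± 0.17 for CAST and WSB (adjusted p = 9.2e-07) and −0.44 ± 0.17 for PWK and WSB (adjusted p = 0.0669, not called). The last of these was called at −0.47 (adjusted p = 0.0494) without PWKxWSB replicate 8, the liver array against its sex label. In all, 12 arrays each gave the call when left out (−0.47 to −0.48).

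Kidney showed the same direction with less spread. Mt2 kidneys read 11.19, 11.79 and 12.19 in PWKxWSB (n = 12) and 11.71, 11.89 and 12.13 in WSBxPWK (n = 10), against 11.92, 12.29 and 12.73 in PWKxPWK and 12.32, 12.55 and 13.06 in WSBxWSB. Every F1 kidney of this pair lay below every WSBxWSB kidney, where 2.52% of all genes had no overlap, and overlap with PWKxPWK was limited to the upper end. Against the mid-parent, Mt2 was −0.54 ± 0.08 for CAST and PWK, −0.72 ± 0.08 for CAST and WSB and −0.62 ± 0.08 for PWK and WSB. Mt1 was −0.28 ± 0.06, −0.45 ± 0.06 and −0.41 ± 0.06 for those pairs, all with an adjusted p of 0.00019 or less.

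In liver, Mt2 was −0.77 ± 0.11 from the mid-parent for CAST and WSB (adjusted p = 4.8e-09), −0.33 ± 0.11 for CAST and PWK (adjusted p = 0.0284) and −0.23 ± 0.11 for PWK and WSB (adjusted p = 0.133). The CAST and WSB value averages CASTxWSB (mean 12.42) and WSBxCAST (mean 11.06), against means of 11.98 in CASTxCAST and 13.1 in WSBxWSB. The CAST and PWK value lost its call with the runs as a block (−0.29, adjusted p = 0.29) and without CASTxCAST replicate 8 or 9 or CASTxPWK replicate 6 (−0.29 to −0.30). In lung, Mt1 (−0.28 ± 0.09, adjusted p = 0.0242) and Mt2 (−0.42 ± 0.12, adjusted p = 0.0102) were called for CAST and PWK alone. Both were lost with the runs as a block (adjusted p = 0.214 and 0.141), and Mt1 also without CASTxCAST replicate 4, CASTxPWK replicate 1 or 4, or PWKxCAST replicate 8 (−0.22 to −0.25). In brain neither gene was called for any pair, with values from −0.05 to 0.06.

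Mt3 lay below the mid-parent in lung for CAST and WSB (−0.31 ± 0.06, adjusted p = 2.1e-05) and for PWK and WSB (−0.16 ± 0.06, adjusted p = 0.0337), and the second call ended on centred arrays (−0.12, adjusted p = 0.112), with the runs as a block (−0.16, adjusted p = 0.249) and without PWKxPWK replicate 7, WSBxPWK replicate 2 or WSBxWSB replicate 1 or 4 (−0.13 to −0.14). Slc30a1 was higher in F1 brain for CAST and WSB (0.11 ± 0.03, adjusted p = 0.0131) and PWK and WSB (0.14 ± 0.04, adjusted p = 0.0056). Without CASTxCAST brain replicate 3, the first was 0.07 and not called. Slc30a1 was lower in F1 lung for all 3 pairs (−0.11 ± 0.03, −0.12 ± 0.03 and −0.16 ± 0.03), in kidney for CAST and PWK (−0.11 ± 0.04) and PWK and WSB (−0.21 ± 0.04), and in liver for CAST and WSB (−0.15 ± 0.05). Centring the arrays ended the calls of CAST and PWK in kidney and lung, CAST and WSB in liver, and CAST and WSB in lung (−0.06 to −0.12, adjusted p from 0.0603 to 0.303). The runs as a block ended the first 3 of these as well (adjusted p from 0.234 to 0.395). The kidney value for CAST and PWK was also lost without any one of 6 arrays (−0.10 to −0.11; CASTxCAST replicates 5 and 9, CASTxPWK 4 and 6, PWKxCAST 1 and PWKxPWK 10), and the liver value without CASTxCAST replicate 2 (−0.13).

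Of the 48 mid-parent differences 22 were called, 20 of them below and 2 above the mid-parent. The count of members below, beside the share of all genes called below, was 3 (16.6%), 2 (20%) and 3 (18.8%) in kidney for the pairs CAST/PWK, CAST/WSB and PWK/WSB. In that order it was 2 (11.3%), 3 (11.5%) and 0 (8.31%) in liver, 3 (9.43%), 2 (15.6%) and 2 (14.5%) in lung, and 0 (7.70%), 0 (14.0%) and 0 (4.04%) in brain. In brain 0 (11.2%), 1 (23.0%) and 1 (5.97%) members lay above, and none did elsewhere. For either direction the shares of all genes called were, for these pairs, 33.7%, 42.7% and 37.4% in kidney and 18.7%, 25.3% and 17.0% in liver. In lung they were 19.5%, 30.5% and 37.2%, and in brain 18.9%, 37.1% and 10%.

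**Figure D3:**
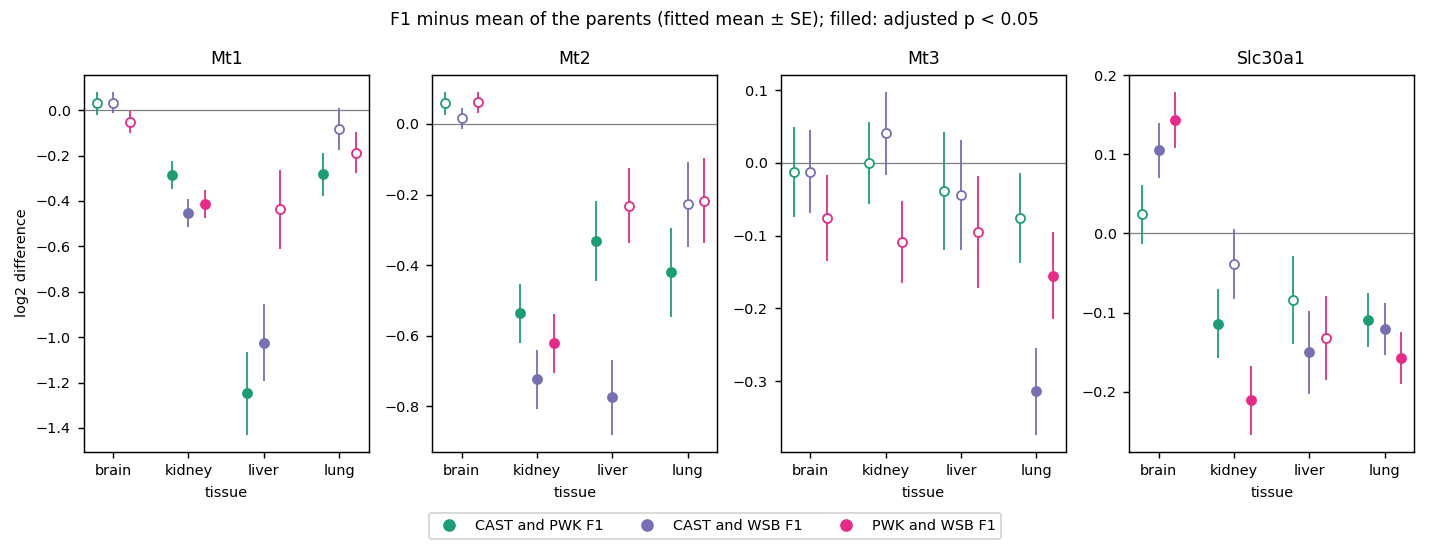
Fitted log2 difference ± SE between F1 mice and the mean of their parents for each gene by tissue, filled where the limma adjusted p was under 0.05. Mt1 reaches −1.25 in liver and Mt2 −0.72 in kidney, and the brain values of both stay within −0.05 and 0.06.

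F1 mice were also set against each parent, a comparison added after the values were seen. Mt1 in CAST and PWK F1 liver was below CAST, the lower parent, by a log2 difference of −0.73 ± 0.22 (adjusted p = 0.004, where 38.9% of all genes were called), and below PWK by −1.76 ± 0.23 (33.7% called). The first was −0.64 with an adjusted p of 0.0721 with the runs as a block. Mt2 in PWK and WSB F1 kidney was below PWK, the lower parent, by −0.47 ± 0.10 (adjusted p = 5.4e-05, 51.4% called), also with the runs as a block (adjusted p = 0.014), and below WSB by −0.77 ± 0.10 (49.2% called). Averaged over both directions of the cross, F1 mice of CAST and WSB lay far below WSB and near CAST. In liver the directions lay on either side of CAST. Mt1 livers averaged 11.13 in CASTxWSB and 9.75 in WSBxCAST, against 10.67 in CASTxCAST. Mt2 livers averaged 12.42 and 11.06, against 11.98. F1 minus WSB was −1.84 ± 0.20 for Mt1 and −1.32 ± 0.13 for Mt2 in liver (46.5% called) and −1.14 ± 0.07 and −1.25 ± 0.10 in kidney (42.4% called), and F1 minus CAST was −0.21 ± 0.21 and −0.23 ± 0.13 in liver (39.4% called) and 0.23 ± 0.08 and −0.20 ± 0.10 in kidney (57.2% called). Of these last 4 values, the 0.23 of Mt1 was called (adjusted p = 0.0067), and it was lost with the runs as a block (adjusted p = 0.0714).

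Other zinc genes moved in both directions. In kidney 33.7%, 42.7% and 37.4% of all genes were called in either direction for CAST/PWK, CAST/WSB and PWK/WSB. Of 6 Slc30 family genes other than Slc30a1 tested in kidney, 1 was above and 0 below the mid-parent for CAST and PWK, 1 above and 2 below for CAST and WSB, and 0 above and 2 below for PWK and WSB. Of 11 Slc39 family genes in kidney, 4, 5 and 3 were above and 1, 0 and 2 below, with Slc39a1, a zinc importer of the plasma membrane, above in each pair (0.24 ± 0.04, 0.29 ± 0.04 and 0.18 ± 0.04). In liver the importer Slc39a5 lay below the mid-parent in each pair (−0.65 ± 0.11, −1.05 ± 0.10 and −0.42 ± 0.10). Glucocorticoid targets split, with 5 of 12 above and 5 below in CAST and WSB F1 liver and 1 above and 1 below in CAST and PWK F1 liver. Of all genes 25.3% and 18.7% were called in either direction in these 2 comparisons. Of 5 macrophage markers 4, 2 and 3 were called below the mid-parent in liver for the 3 pairs. Of all genes 11.3%, 11.5% and 8.31% were called below. The part of these markers in the metallothionein values was not tested.

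Mt1 and Mt2 differed between the reciprocal crosses of CAST and WSB. CASTxWSB mice had more of both than WSBxCAST mice in liver and kidney. With runs of animals as a random block, 1 of these 4 calls remained. Each run holds animals of a single direction of the cross, so for all 4 calls cross direction and runs cannot be told apart. Mt1 livers read 10.06, 11.08 and 12.09 in CASTxWSB (n = 12), against 8.65, 9.55 and 10.91 in WSBxCAST (n = 11). Mt2 livers read 11.78, 12.42 and 13.04 in CASTxWSB, against 9.74, 10.89 and 12.30 in WSBxCAST. In both genes the ranges overlapped by the lower CASTxWSB and the upper WSBxCAST livers.

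The log2 difference in liver was 1.31 ± 0.24 for Mt1 (limma adjusted p = 0.0001) and 1.28 ± 0.15 for Mt2 (adjusted p = 5.3e-10), which made 2 of 4 members higher where 2.95% of all genes were called higher and 5.62% in either direction. In kidney, Mt1 read 10.36, 10.70 and 11.08 in CASTxWSB, against 10.03, 10.34 and 10.66 in WSBxCAST, and Mt2 read 10.94, 11.65 and 12.09, against 10.62, 11.05 and 11.45. The kidney differences were 0.41 ± 0.09 for Mt1 (adjusted p = 0.0027) and 0.61 ± 0.12 for Mt2 (adjusted p = 0.00066), again 2 of 4 members higher where 1.28% of all genes were called higher and 2.44% in either direction. In lung Mt1 was 0.23 ± 0.13 (adjusted p = 0.143) and Mt2 0.28 ± 0.17 (adjusted p = 0.166), with 38.8% of all genes called, and in brain Mt1 was 0.17 ± 0.07 (adjusted p = 0.241) with 0.779% called. Mt3 and Slc30a1 were not called, with Slc30a1 in liver at −0.18 ± 0.07 (adjusted p = 0.142).

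These differences were carried by few runs of animals. In liver the 3 runs of CASTxWSB averaged 11.40, 10.65 and 11.28 for Mt1, against 9.89 and 9.11 in the 2 runs of WSBxCAST, and for Mt2 they averaged 12.56, 12.12 and 12.59, against 11.20 and 10.43. In kidney the Mt1 run means were 10.93, 10.52 and 10.61 in CASTxWSB, against 10.41 and 10.25 in WSBxCAST. Every CASTxWSB run mean thus lay above every WSBxCAST run mean. With runs as a random block Mt2 in liver remained called (adjusted p = 0.00023), whereas Mt1 in liver (1.26, adjusted p = 0.0937), Mt1 in kidney (0.38, adjusted p = 0.779) and Mt2 in kidney (0.58, adjusted p = 0.452) were not. The runs are read from the animal numbers in the labels, and the litters and collection days behind them were not given in the sources used here.

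In WSBxCAST liver the sexes did not overlap, and 7.06% of all genes had no such overlap. Mt1 read 10.21, 10.63 and 10.91 in the 5 females, against 8.65, 8.96 and 9.55 in the 6 males, and Mt2 read 11.44 to 12.30 in females, against 9.74 to 10.89 in males. Whether this difference is particular to WSBxCAST was not tested.

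**Figure D4:**
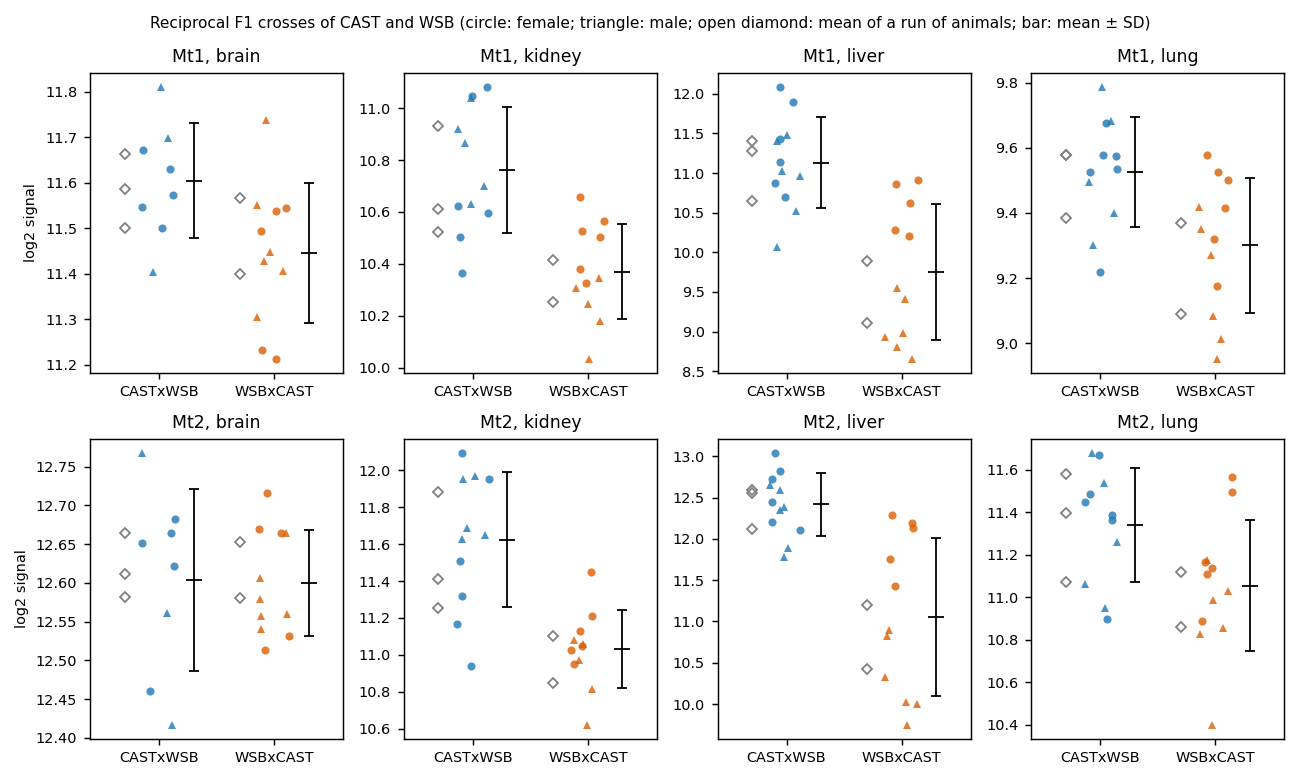
Log2 signal of Mt1 and Mt2 in each CASTxWSB (blue) and WSBxCAST (orange) array by tissue, with females as circles, males as triangles, run means as open diamonds and the mean and SD as a bar. In liver and kidney CASTxWSB lies higher, and in WSBxCAST liver the females lie above the males for both genes.

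The other reciprocal pairs gave no call for any of the 4 genes. For CASTxPWK minus PWKxCAST, Mt1 in liver was −0.45 ± 0.25 (adjusted p = 0.261) and Mt2 −0.35 ± 0.16 (adjusted p = 0.145), and 9.32%, 3.03%, 0.611% and 0.151% of all genes were called in liver, kidney, lung and brain. For PWKxWSB minus WSBxPWK, Mt1 in liver was 0.09 ± 0.24 (adjusted p = 0.947), and 1.22%, 1%, 8.40% and 0.248% of all genes were called in the same order. Over the 48 reciprocal tests limma called 4, all of them named above. With estimated array weights, limma called 7.

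Some glucocorticoid targets were higher in CASTxWSB than in WSBxCAST in each tissue, and none was lower. In liver 6 of 12 were higher and 0 lower (median 0.32, against −0.01 over all genes), in lung 7 of 12 and 0 (0.43, against −0.04), in kidney 2 of 11 and 0 (0.32, against −0.01), and in brain 3 of 10 and 0 (0.16, against 0.02). Of all genes 2.95%, 14.5%, 1.28% and 0.345% were called higher in these tissues. The part of glucocorticoids in the Mt1 and Mt2 differences was not tested. With the runs as a block, added after the values were seen, 0 of the targets were called in liver, kidney and brain and 2 in lung (Fkbp5 and Klf9), with medians of 0.31 in liver, 0.44 in lung, 0.31 in kidney and 0.17 in brain. The clock gene Per1 was 1.22 ± 0.28 higher in liver (adjusted p = 0.0028), 1.05 ± 0.24 higher in kidney (adjusted p = 0.0045) and 0.83 ± 0.22 higher in lung (adjusted p = 0.0019). Fkbp5, a co-chaperone of the glucocorticoid receptor, was 1.47 ± 0.33 higher in lung (adjusted p = 0.00047), and Pck1 and Tat, liver enzymes of gluconeogenesis and tyrosine breakdown, were 0.42 ± 0.08 and 0.20 ± 0.04 higher in liver (adjusted p = 0.00012 and 0.00014). Among zinc genes in liver, Slc30a10 (−0.43 ± 0.10, adjusted p = 0.0039) and Slc30a7 (−0.18 ± 0.06, adjusted p = 0.0391) were lower, the importer Slc39a14 was higher (0.20 ± 0.06, adjusted p = 0.0211), and none of 9 metal and copper genes was called. Of 5 hepatocyte markers in liver 1 was higher and 0 lower, and that 1 is Tat, which is also a listed glucocorticoid target. Of 5 macrophage markers none was called.

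Averaged over the 9 crosses, females had more Mt1 and Mt2 than males in liver, and this call rested on WSBxCAST. Mt1 livers read 9.13, 11.15 and 12.52 in females (n = 49), against 8.60, 10.81 and 12.72 in males (n = 52), and Mt2 livers read 11.44, 12.54 and 13.20 in females, against 9.74, 12.51 and 13.31 in males. The sexes overlapped over most of their range and the male spread was wider. Female minus male was 0.36 ± 0.12 for Mt1 (limma adjusted p = 0.0243) and 0.27 ± 0.07 for Mt2 (adjusted p = 0.0041), so 2 of 4 members were higher where 8.76% of all genes were called higher and 13.8% in either direction. Without WSBxCAST, a fit added after the values were seen, the liver differences were 0.21 ± 0.12 for Mt1 (adjusted p = 0.3) and 0.10 ± 0.08 for Mt2 (adjusted p = 0.467), and neither was called. WSBxCAST livers averaged 10.58 in females and 9.06 in males for Mt1, and 11.96 in females and 10.30 in males for Mt2. In the other 8 crosses female minus male ran from −0.38 to 0.48 for Mt1 and from −0.23 to 0.48 for Mt2. In an additive model of cross and sex Mt1 had an adjusted p of 0.0513. In kidney, lung and brain, where 10.9%, 3.52% and 0.0708% of all genes were called, no member was. Slc39a5, a zinc importer, was also higher in female liver (0.62 ± 0.07, adjusted p = 7.2e-12).

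Animals that were high in Mt1 were high in Mt2. After the mean of each cross and sex was removed, Pearson's r between the 2 genes was 0.61 in brain (n = 85), 0.90 in kidney (n = 102), 0.87 in liver (n = 101) and 0.92 in lung (n = 98), and Spearman's rho was 0.55, 0.88, 0.91 and 0.91. Each r and rho had an adjusted p of 6e-05 over the 24 pairs of genes within tissues, the smallest these 100000 permutations within cross and sex gave. Without the 2 animals farthest from the median r was 0.56, 0.90, 0.86 and 0.92, and within runs it was 0.63, 0.84, 0.86 and 0.91. The correlation was positive in 9 of 9 crosses in each tissue, from 0.88 to 0.97 in liver and from 0.13 to 0.87 in brain. Shared probe sequence between these 2 similar genes was not tested as a source of the correlation.

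Mt3 and Slc30a1 were less tied to them. In brain, Mt1 and Mt3 had r = 0.43 (rho = 0.37, adjusted permutation p = 0.0054 and 0.0081), 0.44 without the 2 farthest animals, and 0.23 within runs (adjusted p = 0.485), so this relation did not hold within runs. The 5 pairs called of 24 were this one and Mt1 with Mt2 in the 4 tissues. Slc30a1 had no called correlation with Mt1 or Mt2 in any tissue. In liver its r with Mt1 was −0.22 (adjusted p = 0.193), with −0.46 in F1 animals (n = 68, adjusted p = 0.0057) and 0.38 in inbred animals (n = 33, adjusted p = 0.0948). In lung its r with Mt1 was −0.06 and with Mt2 −0.12, within runs −0.32 and −0.38 (adjusted p = 0.0476 and 0.0205), and on centred arrays 0.29 and 0.26 (adjusted p = 0.0214 and 0.0488), so the direction depended on the scaling.

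Deviations of Mt1 and Mt2 also ran together across organs of one animal. Between kidney and liver, r was 0.71 for Mt1 and 0.69 for Mt2 (n = 95 animals, rho = 0.69 and 0.63, adjusted permutation p = 0.00012 over 24 relations, the smallest these permutations gave). Without the 2 farthest animals r was 0.70 and 0.62, and within runs it was 0.59 and 0.57 (adjusted p = 0.00024). Between liver and lung r was 0.43 and 0.42 (n = 92, rho = 0.45 and 0.46, adjusted p of r 0.00054), 0.42 and 0.40 without the farthest 2, and 0.38 and 0.39 within runs (adjusted p = 0.0427 and 0.026). All of these were positive in 9 of 9 crosses, with the kidney and liver r of Mt1 between 0.22 and 0.90 and a median of 0.66.

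Kidney and lung were less close. Their r was 0.30 for Mt1 and 0.33 for Mt2 (n = 93, rho = 0.31 and 0.32, adjusted p of r 0.0224 and 0.0176), and 0.27 (adjusted p = 0.0582) and 0.32 (adjusted p = 0.03) without the 2 farthest animals. Within runs it was 0.19 and 0.27 and did not pass (adjusted p = 0.363 and 0.199). No relation with brain was called, from −0.20 to 0.13 for Mt1 and Mt2 (n = 74 to 78), and none of Mt3 or Slc30a1 was, so 6 of 24 relations were called. Over 10348 genes tested in both organs the median r between kidney and liver was 0.08, and 0.251% and 0.280% of genes had an r at or above that of Mt1 and Mt2. For liver and lung 2.06% and 2.25% of genes did, and for kidney and lung 7.19% and 5.71%.

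**Figure D5:**
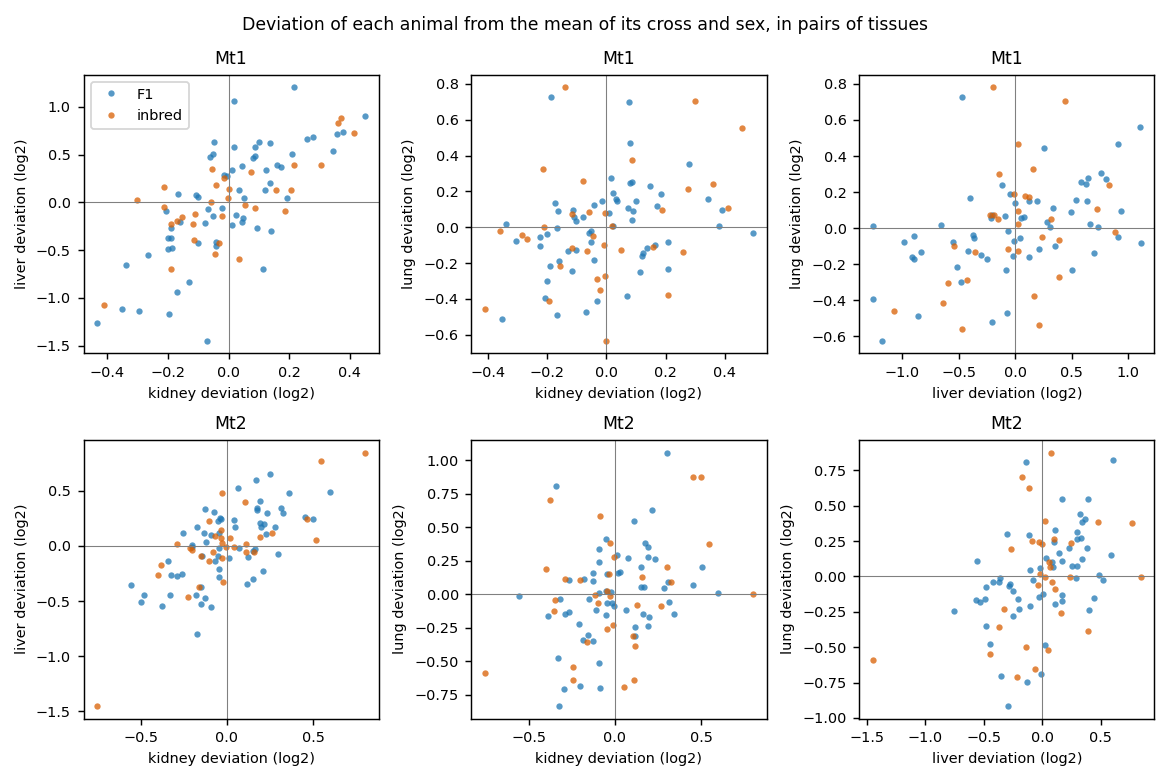
Deviation of each animal's Mt1 (top) and Mt2 (bottom) log2 signal from the mean of its cross and sex, in one tissue against another, with F1 animals in blue and inbred animals in orange. Points run along the diagonal for kidney and liver (r = 0.71 and 0.69) and spread more for kidney and lung (r = 0.30 and 0.33).

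The genes whose deviations were most like each member, apart from the members, differed between tissues. For Mt1 in liver (101 arrays) they were Mknk2 (r = 0.72), Retreg1 (0.66), Angptl4 (0.66), Ell2 (0.63) and Herpud1 (0.63). Mknk2 encodes a kinase of the translation factor eIF4E, Retreg1 a receptor for autophagy of the endoplasmic reticulum, Angptl4 an inhibitor of lipoprotein lipase, Ell2 an elongation factor and Herpud1 a protein of endoplasmic reticulum stress. Angptl4 was also the gene most like Mt1 in kidney (0.61), and Retreg1 the gene most like Mt2 in liver (0.60). For Mt2 in lung (98 arrays) they were Alas1 (0.80), the first enzyme of haem synthesis, Rgcc (0.77), Gdpd1 (0.74), Hspb8 (0.73), a small heat shock protein, and Ccdc71l (0.72), and Alas1 was most like Mt1 in lung (0.79). These r are descriptions across animals, with no test.

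In brain the nearest genes were Cox4i1 for Mt1 (0.73) and Eif2b4 for Mt2 (0.64), a subunit of the respiratory chain's cytochrome oxidase and one of a translation factor, and Timm17b for Mt3 (0.70), part of the mitochondrial import channel. In kidney the gene nearest to Mt2 was Dnajb9 (0.65), a chaperone of the endoplasmic reticulum. For Slc30a1 in liver they were Bcor (0.65), a transcriptional corepressor, Tigar (0.57), S1pr5 (0.57), Gdpgp1 (0.56) and Fzd7 (0.55), with Ahctf1 in kidney (0.67), Gpc6 in brain (0.57) and Gpr155 in lung (0.53). For Mt3 in liver, where its signal was low, the highest were Tmem132b (0.45), 4930527J03Rik (0.43), Tmem270 (0.40), Cytl1 (0.38) and Irx2 (0.38), with Ttyh1 in kidney (0.51) and Akt2 in lung (0.39).

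Among the listed genes, glucocorticoid targets tracked Mt1 in liver and lung, by r that were not computed again within runs. Their median r with Mt1 was 0.40 in liver (12 genes, 3 of them at 0.5 or above, highest Ddit4 at 0.57), 0.49 in lung (12 genes, 6 at 0.5 or above, highest Pdk4 at 0.60), 0.29 in kidney (11 genes) and 0.07 in brain (10 genes). Over all genes the median r with Mt1 was −0.01 in liver and 0.05 in lung, where 0.487% and 2.22% of genes reached 0.5. With Mt2 the medians were 0.31 in liver, 0.47 in lung, 0.21 in kidney and 0.04 in brain, and with Slc30a1 they were −0.32 in liver and 0.33 in kidney. Acute-phase genes had a median r with Mt1 of 0.11 in liver, and oxidative stress genes of 0.05. The part of glucocorticoids in the deviations of Mt1 and Mt2 was not tested.

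The transporters tracked Mt1 less. Their medians lay between −0.20 and 0.03 for Slc30 genes and between −0.03 and 0.24 for Slc39 genes over the 4 tissues. Slc39a10, an importer known from mice to be repressed by MTF1, had the lowest r with Mt1 of the Slc39 genes in kidney (−0.66), liver (−0.57) and lung (−0.37), and Slc30a10, an exporter of manganese, had the lowest of the Slc30 genes in liver (−0.44). The part of MTF1 in these r was not tested. The copper importer Slc31a1 had r = 0.61 with Mt1 and 0.65 with Mt2 in lung. With Slc30a1 in kidney the highest were Atp7a (0.58), a copper exporter, Klf9 (0.58) and Slc30a7 (0.55), each within its own list. In brain, astrocyte markers had a median r of 0.28 with Mt1 (7 genes, 2 at 0.5 or above, highest Gfap at 0.54) and oligodendrocyte markers 0.49 (3 genes), and in lung lymphocyte markers had −0.29 (5 genes). These marker medians are not set here against all genes or the other marker lists. The part of these cells in the deviations of Mt1 was not tested.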

How the data were processed

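The files hold log2 signal per transcript cluster, which the authors made from the arrays by RMA with Affymetrix Expression Console, per the submitters' processing notes. Of 35556 clusters, 21218 carry 1 gene symbol, 1881 carry several and 12457 carry none, and each of the 18820 genes was taken from its single-symbol cluster with the highest mean. Array medians lay between 5.89 and 6.36. Differences within a tissue were fitted with limma 3.58.1 (R 4.3.3) on cross-by-sex means, so both sexes weigh equally, over the 11292 genes whose mean passed the 40th percentile, and were called at a Benjamini-Hochberg adjusted p under 0.05. Tissue differences were fitted over 13774 genes in one model without the animal as a block. The values after ± in differences are standard errors. Correlations used deviations from cross-by-sex means, with 100000 permutations within cross and sex (Python 3.11.15, numpy 2.4.6).

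Neighbouring animal numbers were joined into 25 runs, with a new run after a gap above 5. Alternatives were another filter, none, array centring, array weights, no variance trend, an additive model, each sex alone, the runs or the animal as a block, and each replicate left out. The fits were tested on simulated liver data in which arrays were independent. That test therefore does not cover correlation within runs or animals. The number of arrays limits the precision. Named were the 4 members in each comparison, per list and comparison up to 3 called genes of smallest p, and the most correlated genes (5 in the tissue where the member varied most within crosses, 1 in each other). The members and the gene lists were chosen with earlier results of these data known.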

Additional observations from a re-analysis of the deposited data

Results flagged for a closer look

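Dixon's test at the 95% level was run on the 4 genes in 13 groups of up to 10 arrays. Of these 52 tests 4 set an array apart from the rest of its group, on 3 arrays in all, and chance gives about 1 in 20. CASTxPWK lung replicate 2 was the highest of its group in both Mt1 (9.62, against 8.51 to 9.03 in the others) and Mt2 (11.92, against 10.16 to 11.02). PWKxPWK brain replicate 6 was the highest in Mt2 at 12.47, against 12.27 to 12.32. CASTxCAST brain replicate 3 was the lowest in Slc30a1 at 8.68, against 9.03 to 9.27, and without it the F1 difference of Slc30a1 from the CAST and WSB mid-parent in brain was 0.07 and was not called.

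Strain differences varied between tissues for all 4 genes by limma's F-test, with an adjusted p of 4.7e-06 for Mt1, 5.1e-10 for Mt2, 4.5e-17 for Mt3 and 4.6e-12 for Slc30a1. For Mt2, CAST minus PWK was 0.35 in brain and −1.0 in liver. For Mt3, PWK minus WSB was −0.86 in lung and 0.08 in brain.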

How the results depend on the processing

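With the runs of neighbouring animals as a block, 15 calls within tissues were lost and 0 gained. The 4 reciprocal calls became 1 with that block and 7 with array weights. Of the 22 mid-parent calls, 7 were lost with that block, 6 on centred arrays, 2 with array weights and 1 in the additive model. Centred arrays gained 1 such call and array weights 2. In females alone 10 of the strain calls were lost, and in males alone 6 were lost and 1 was gained. The 2 sex calls became 0 without the WSBxCAST cross, an alternative chosen after seeing the data, 1 in the additive model, 4 with array weights and 3 on centred arrays. Called pairs of genes within tissues were 5, and 10 on centred arrays, and called relations between tissues were 6, and 2 in inbred animals alone. F1 against each parent gave 47 calls, and 32 with the runs as a block. Leaving out 1 replicate at a time gave 30 to 33 strain calls (32 with all), 4 to 4 reciprocal, 21 to 23 mid-parent (22 with all) and 2 to 3 sex calls (2 with all). Directions turned for Mt2 in lung, PWK minus WSB (0.049 in females), and for the lung correlations of Slc30a1 with Mt1 (0.29 on centred arrays) and with Mt2 (0.26 on centred arrays). The cause of these changes was not tested. With the animal as a replicate block across tissues, 23 of 24 tissue calls were made, as without it. The correlation within animals in that fit, a single value from 3000 sampled genes, was 0.0399. It does not describe Mt1 or Mt2 by themselves. At the 60th percentile 30 tests of Mt3 outside brain were not made. Each gene had 1 cluster with its symbol alone. For Slc30a1, 1 further cluster that carries several symbols was not used.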
